A study of Homo sapiens
Mus musculus with 8 samples.

Results

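The genes described here are the subunits, assembly chaperones, activators and inhibitor of the proteasome. They were taken as all features whose symbol, after the species prefix, starts with Psm, a letter from a to g and a digit, in either case. The rule found 104 of 60736 features, 50 of 27998 in mouse and 54 of 32738 in human. Both species hold 6 base ATPases, 8 lid subunits, 3 base scaffold subunits, 4 beta subunits with no protease site, 3 constitutive protease subunits, 3 immunoproteasome subunits, 1 thymoproteasome subunit, 4 core assembly chaperones, 3 base assembly chaperones, 4 activators and 1 inhibitor. The alpha ring has 8 features in mouse and 10 in human, because the symbols PSMA1 and PSMA2 each stand for 2 human gene identifiers. The remaining 2 mouse features are Psme2b, a copy of Psme2, and Psmc3ip, which encodes a factor of meiotic recombination and no proteasome subunit. The remaining 4 human features are PSMC3IP and the antisense RNAs PSMD5-AS1, PSMD6-AS2 and PSMG3-AS1, which match by name only.

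The proteasome is the protease that degrades ubiquitin-tagged proteins in the cytosol and the nucleus. Its barrel-shaped core is built of alpha rings, which gate the entry, and beta rings, in which Psmb5 carries the chymotrypsin-like site, Psmb6 the caspase-like site and Psmb7 the trypsin-like site. A regulatory particle of ATPases, scaffolds and a lid binds, unfolds and deubiquitinates substrates. Lymphocytes also make the immunoproteasome, in which Psmb8 replaces Psmb5, Psmb9 replaces Psmb6 and Psmb10 replaces Psmb7, and whose products include peptides presented on MHC class I.

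The study compared single-cell RNA-seq kits on 4 lymphocyte lines that were pooled in equal numbers of viable cells. EL4 is a mouse T lymphoma line and IVA12 a mouse B cell line. Jurkat is a human CD4 T leukemia line, and TALL-104 is a human CD8 T leukemia line of smaller cells, which alone was grown with interleukin 2. Each line was grown in its own medium, so line and medium cannot be told apart. Each cell type is thus represented by 1 established line, and no sample is labelled as treated. The Chromium kits count messenger RNA from its 3′ or its 5′ end. For 3′ v3 there were 4 libraries, aimed at 3000 cells (replicates 1 and 2) or 6000 cells (replicates 3 and 4). For 5′ v1 there were 2, aimed at 5000 and 2000 cells, and for 3′ v2 only 1, aimed at 2000 cells, was used. By the sample list of the study, the 3′ v2 library was made from cell mixture A, both 5′ v1 libraries from mixture B, and the 3′ v3 libraries from mixture F (replicates 1 and 3) and mixture G (replicates 2 and 4). Kit and mixture cannot be told apart, except that F and G were both run with 3′ v3. Libraries of 1 mixture are technical replicates, so p-values here measure the spread between libraries only.

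The libraries held 24790710 to 251164949 unique molecular identifiers (UMIs). The limits on UMIs, species and mitochondrial share left 27076 cells, of which 23469 fell into clusters that could be named by marker genes and had at least 60% of their marker UMIs from that line. The marker levels that follow describe the naming and do not test it, since the cells were chosen by these markers. Single markers were higher in their own line than in the other line of the species in every library for 17 of 24 TALL-104 genes and 17 of 20 EL4 genes, but only 14 of 20 Jurkat genes and 12 of 24 IVA12 features, which are 23 genes because Cd37 stands for 2 gene identifiers. Levels are given in CPM, the UMIs of a gene per 1000000 UMIs of its species in the sum, and are not corrected for transcript length. EL4-like markers summed to 2932 to 3705 CPM in EL4-like cells and 39.4 to 103 in IVA12-like cells, and IVA12-like markers to 2508 to 7866 against 88.2 to 197. Jurkat-like markers summed to 2712 to 4769 in Jurkat-like and 760 to 1353 in TALL-104-like cells, and TALL-104-like markers to 6977 to 15594 against 59.9 to 221. TALL-104-like cells were shallow, with medians of 1944 to 2751 UMIs per cell against 9594 to 18879 in Jurkat-like and 24468 to 35234 in the mouse lines, and their sums held only 109157 to 2328220 UMIs. The 3′ v3 libraries of mixtures F and G differed as whole libraries. In G, 303 of 1836 and 1145 of 4416 barcodes with at least 1000 UMIs exceeded the mitochondrial limit. In F it was 460 of 5723 and 662 of 13415. Barcodes with UMIs of both species numbered 23 and 83 in G and 295 and 1896 in F. Human UMIs were 13.3% and 15.5% in G and 31.6% and 30.2% in F. Jurkat-like cells of mixture G stood apart too. They numbered 151 and 438 there against 1542 and 3283 in F, with median mitochondrial shares of 8.79% and 8.46% against 6.27% and 4.75% in F. These library values and the cell numbers and mitochondrial shares of Jurkat-like cells move with the mixtures. Their part in the results below was not tested. TALL-104-like cells had median shares of mouse UMIs of 2.23% in G and 6.22% in F in the libraries aimed at fewer cells. In those aimed at more cells the shares were 6.79% in G and 15.4% in F. The mixtures overlap only across the targeted cell numbers, and at each of them the share was higher in F. The part of this share in the F and G results of TALL-104-like cells was not tested. No doublet caller was run, 2347 barcodes with UMIs of both species were left out, and library pairs shared 1 to 14 barcodes of named cells.

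Of the mouse members, 48 had enough counts to be tested, and so did 51 of the human members. Psma8, an alpha subunit of the testis, had 2 UMIs in mouse cells, and Psmb11, the subunit that defines the thymoproteasome of cortical thymic epithelium, had 2 UMIs in EL4-like and 7 in IVA12-like cells of 3′ v3, a ratio of 5.16 with a counting interval of 0.983 to 50.9. Human PSMB11 and the PSMA1 entry ENSG00000256206 had 0 UMIs, and the PSMA2 entry ENSG00000256646 had 3, while the PSMA1 and PSMA2 entries used below are ENSG00000129084 and ENSG00000106588. Where 2 entries overlap or nearly match (PSMA1, PSMA2, Psme2 with Psme2b, and the antisense RNAs), the reads may have been divided between them and their values are uncertain. In all 14 sums of a species, 48 mouse and 47 human members had UMIs.

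Summed over the members without the 2 remaining mouse and 4 remaining human features named above (Psme2b, Psmc3ip, PSMC3IP and the antisense RNAs), which are left out of all such sums, proteasome transcripts took 0.392% to 1.04% of UMIs in EL4-like cells, 0.763% to 1.50% in IVA12-like cells, 0.560% to 1.21% in Jurkat-like cells and 0.543% to 0.657% in TALL-104-like cells. In the 4 libraries of 3′ v3, replicates 1 to 4, the sums were 10375, 7529, 10078 and 7502 CPM in EL4-like cells and 15001, 8268, 14631 and 8187 in IVA12-like cells. In the same order they were 12053, 5731, 11916 and 5596 in Jurkat-like cells and 6463, 5561, 6569 and 5432 in TALL-104-like cells. The 2 libraries of mixture F lay above the 2 of mixture G in all 4 lines, by 1.36 times in EL4-like, 1.80 times in IVA12-like, 2.12 times in Jurkat-like and 1.19 times in TALL-104-like cells. In 5′ v1, replicates 1 and 2, the sums were 4604 and 3924 in EL4-like, 8588 and 7628 in IVA12-like, 7817 and 6704 in Jurkat-like and 6016 and 5753 in TALL-104-like cells. The 3′ v2 library gave 6072, 8344, 7389 and 6328 in the same order of lines. IVA12-like cells had the highest sum of the 4 lines in all 7 libraries.

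**Figure D1:**
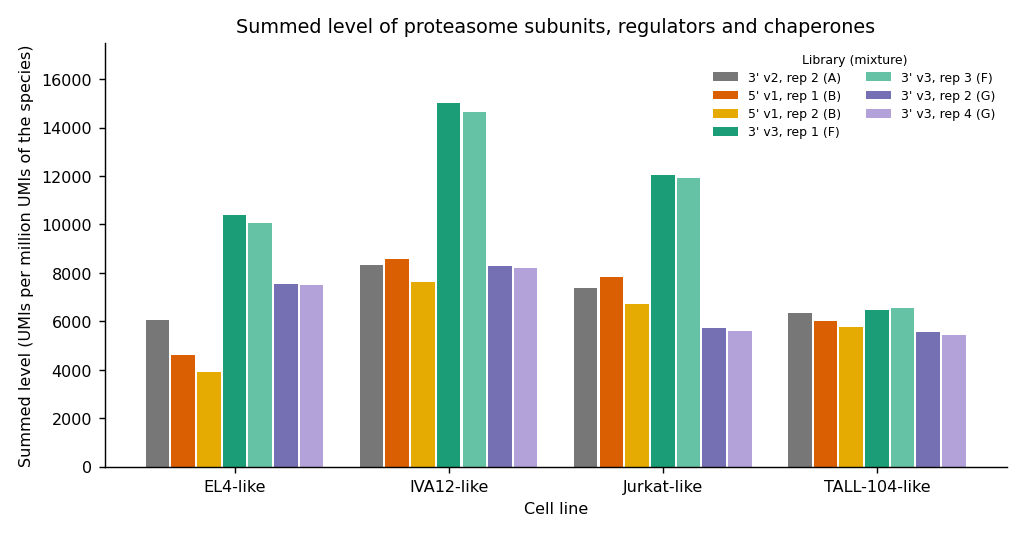
Summed level of the proteasome members (y axis, CPM), without Psme2b, Psmc3ip, PSMC3IP and the antisense RNAs, in each library, by cell line, with each bar 1 library, coloured by library and marked with its cell mixture. In every line the 2 libraries of mixture F lie above the 2 of mixture G, and the ratio of F to G is 2.12 in Jurkat-like cells (12053 and 11916 against 5731 and 5596), 1.80 in IVA12-like cells and 1.19 in TALL-104-like cells (6463 and 6569 against 5561 and 5432).

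On this scale Psma7, an alpha ring subunit, led in EL4-like cells of 3′ v3 with a mean of 522 CPM, and PSMA7 led in Jurkat-like and TALL-104-like cells with 654 and 599. Psmb3, a beta subunit with no protease site, led in IVA12-like cells with 753, ahead of Psmb5 with 657. That lead came from mixture F, with means of 1104 and 844. In mixture G Psmb5 was higher, at 470 against 401 for Psmb3. PSME1, a subunit of the interferon-inducible activator, came after PSMA7 in TALL-104-like cells with 453.

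The balance of immunoproteasome and constitutive subunits differed between the lines and between the 3 sites. EL4-like cells held more UMIs of Psmb8 than of Psmb5, IVA12-like cells the reverse, and the human lines lay between or above. The shares also moved with the kit, so they compare lines within a kit and do not give the absolute balance of transcripts. The balance is given as the percent of the UMIs of each pair that came from the immunoproteasome subunit, with no test, since it is a score over members.

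For the chymotrypsin-like site, Psmb8 took 56.6%, 57.3%, 56.3% and 55.0% of the Psmb5 and Psmb8 UMIs in EL4-like cells of 3′ v3, replicates 1 to 4, and 14.9%, 10.9%, 14.9% and 10.7% in IVA12-like cells. The same share for PSMB8 was 50.2%, 54.3%, 49.9% and 55.4% in Jurkat-like cells and 58.8%, 72.7%, 61.8% and 76.1% in TALL-104-like cells. By their means in 3′ v3 the lines ran in the order IVA12-like, Jurkat-like, EL4-like, TALL-104-like. The means were 12.8% ± 2.38, 52.4% ± 2.79, 56.3% ± 0.941 and 67.4% ± 8.35 (SD, n = 4 libraries of 2 mixtures). The ranges of Jurkat-like and EL4-like cells overlapped. In TALL-104-like cells the mean was 60.3% in mixture F and 74.4% in G. Mouse and human shares are of different genes and are set side by side only as a description. In 5′ v1 the shares were 73.9% and 76.5% in EL4-like, 22.1% and 24.0% in IVA12-like, 48.5% and 49.3% in Jurkat-like and 63.5% and 65.2% in TALL-104-like cells, so EL4-like cells were highest there. The TALL-104-like values rest on few UMIs, with exact (Clopper-Pearson) 95% intervals of 49.0% to 76.4% and 42.7% to 83.6% in 5′ v1 and 52.0% to 65.4% in replicate 1 of 3′ v3. Intervals here and below cover counting error only.

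For the caspase-like site, Psmb9 took 47.0%, 49.4%, 48.2% and 49.1% of the Psmb6 and Psmb9 UMIs in EL4-like cells of 3′ v3 and 17.5%, 15.5%, 17.6% and 14.2% in IVA12-like cells. PSMB9 took 31.1%, 35.4%, 31.0% and 37.9% in Jurkat-like cells and 48.0%, 51.4%, 43.7% and 55.6% in TALL-104-like cells. The means were 48.4% ± 1.06, 16.2% ± 1.64, 33.9% ± 3.39 and 49.7% ± 5.07 (SD, n = 4), and EL4-like and TALL-104-like ranges overlapped. In 5′ v1 the means of 2 libraries were 55.5%, 24.6%, 32.3% and 39.4% in the same order of lines.

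For the trypsin-like site the order was another. Psmb10 took 29.9%, 27.5%, 30.0% and 29.6% of the Psmb7 and Psmb10 UMIs in EL4-like cells of 3′ v3 and 35.5%, 34.4%, 35.2% and 36.7% in IVA12-like cells, so here the IVA12-like range lay above the EL4-like one. PSMB10 took 8.67%, 5.56%, 9.89% and 6.71% in Jurkat-like cells and 16.8%, 16.5%, 25.2% and 18.4% in TALL-104-like cells, and the TALL-104-like range lay above. In 5′ v1 PSMB10 took 26.7% and 27.6% in Jurkat-like and 42.1% and 33.3% in TALL-104-like cells, above every 3′ v3 library of the same line, whereas the mouse shares of 28.7% and 27.4% in EL4-like and 35.3% and 35.0% in IVA12-like cells were close to those of 3′ v3. The single 3′ v2 library gave 64.9% (exact 95% interval 63.4% to 66.3%) for Psmb8 in EL4-like and 11.7% (9.97% to 13.5%) in IVA12-like cells. For PSMB8 it gave 44.1% (41.5% to 46.7%) in Jurkat-like and 77.5% (61.5% to 89.2%) in TALL-104-like cells. Its Psmb9 shares of 39.8% (38.4% to 41.2%) in EL4-like and 8.91% (7.28% to 10.8%) in IVA12-like cells lay below those of every other library of the line, and the PSMB9 shares were 33.4% (30.9% to 35.9%) in Jurkat-like and 44.9% (30.7% to 59.8%) in TALL-104-like cells. For Psmb10 it gave 28.3% (26.6% to 30.0%) in EL4-like and 44.9% (42.1% to 47.7%) in IVA12-like cells, the latter above every other library, and for PSMB10 12.9% (11.1% to 14.7%) in Jurkat-like and 20.5% (9.30% to 36.5%) in TALL-104-like cells.

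**Figure D2:**
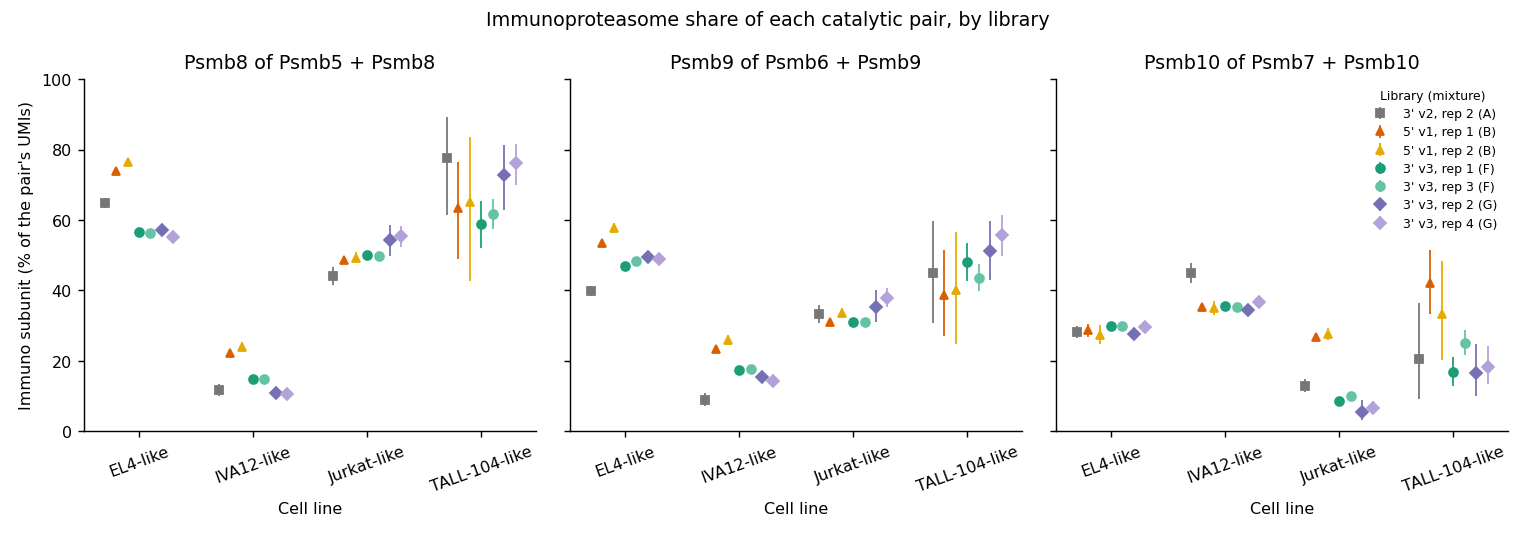
Percent of the UMIs of each catalytic pair that came from the immunoproteasome subunit (y axis), by line, for Psmb8 with Psmb5, Psmb9 with Psmb6 and Psmb10 with Psmb7; each point is 1 library, its bar is the exact 95% interval of counting error, and the marker shape gives the kit and mixture. IVA12-like cells had the lowest shares for Psmb8 and Psmb9 in every library, and Jurkat-like cells of 3′ v3 the lowest for PSMB10 (5.56% to 9.89%).

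In 3′ v3, EL4-like cells carried higher levels of Psmb8 and Psmb9 than IVA12-like cells, and lower levels of Psmb10, of all 3 constitutive protease subunits and of the interferon-inducible activator. For Psmb6, a constitutive subunit, the lines lay close in mixture G. Most other members that differed were lower in EL4-like cells. Of the 48 members tested, 10 were higher and 27 lower in EL4-like cells by edgeR's quasi-likelihood test at a Benjamini-Hochberg adjusted p under 0.05. Among all 13448 mouse genes tested, 80.5% were called, 40.6% higher in EL4-like and 39.9% higher in IVA12-like cells. The share of members called, 77.1%, was thus near that of all genes, while the split leaned to IVA12-like cells, with a median log2 difference of -0.31 over members and 0.00 over all genes.

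Psmb8 (ENSMUSG00000024338) stood at 397, 288, 395 and 258 CPM in EL4-like cells and 148, 57.5, 147 and 55.9 in IVA12-like cells of 3′ v3, replicates 1 to 4, and Psmb9 (ENSMUSG00000096727) at 283, 231, 271 and 219 CPM in EL4-like cells and 110.2, 45.8, 106 and 40.2 in IVA12-like cells. For both genes every EL4-like value lay above every IVA12-like value. The log2 difference, EL4-like over IVA12-like, was 1.88 ± 0.14 (SE), adjusted p = 3.45e-07 for Psmb8 and 1.91 ± 0.17 (SE), adjusted p = 1.56e-06 for Psmb9 by edgeR. Psmb10 (ENSMUSG00000031897) went the other way, at 83.8, 64.8, 81.4 and 66.2 CPM in EL4-like cells and 154, 103, 150.4 and 106 in IVA12-like cells, without overlap and with a log2 difference of -0.73 ± 0.06 (SE), adjusted p = 1.02e-06 by edgeR.

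Psmb5 (ENSMUSG00000022193), whose product Psmb8 replaces, stood at 305, 214, 306 and 210.3 CPM in EL4-like cells and 846, 471, 842 and 468 in IVA12-like cells. Its groups did not overlap and the log2 difference was -1.25 ± 0.06 (SE), adjusted p = 1.72e-08 by edgeR. Psmb6 (ENSMUSG00000018286) stood at 319, 236, 291 and 227 CPM in EL4-like cells and 519, 249.8, 496 and 242 in IVA12-like cells. Psmb7 (ENSMUSG00000026750) stood at 196, 171, 189.9 and 157 CPM in EL4-like cells and 281, 197, 277 and 183 in IVA12-like cells. In these constitutive subunits the lines overlapped across mixtures but not within a mixture, where IVA12-like cells were higher. Their log2 differences of -0.36 (adjusted p = 0.0103) and -0.32 (adjusted p = 0.00106) passed edgeR's test, in which each library was a block. For Psmb6 the lines lay close in mixture G, at 236 and 227 against 249.8 and 242. Its EL4-like over IVA12-like ratio was lower in F than in G, by -0.60 ± 0.07 (SE), adjusted p = 1.08e-09 in edgeR's test of the difference.

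Among the activators, which open the gate of the core, Psme1 and Psme2 form the interferon-inducible ring. Psme1 stood at 197, 145, 234 and 144 CPM in EL4-like cells and 622, 349, 681 and 347 in IVA12-like cells, without overlap. Psme2 stood at 176, 112, 165 and 111 CPM in EL4-like cells and 556, 223, 523 and 209 in IVA12-like cells, also without overlap. Both were thus lower in every EL4-like library. Their log2 differences were -1.38 ± 0.07 (SE), adjusted p = 1.44e-08 and -1.26 ± 0.11 (SE), adjusted p = 2.13e-06 by edgeR. Psme2b, a mouse copy of Psme2 that may share its reads, was at 1.90, 1.20, 3.60 and 1.13 in EL4-like and 9.75, 7.69, 13.5 and 9.27 in IVA12-like cells, a log2 difference of -2.29 ± 0.17 (SE), adjusted p = 4.98e-07 by edgeR. Psme3, which forms the nuclear activator, was at 95.3, 148, 76.2 and 142 in EL4-like and 145, 188, 120.4 and 176 in IVA12-like cells, and its log2 difference of -0.43 ± 0.06 (SE), adjusted p = 6.85e-05 by edgeR came from pairs within libraries, as the groups overlapped. Psme4, the large single-chain activator, did not pass the test (0.13, edgeR adjusted p = 0.146), and Psmf1, the inhibitor, was lower in EL4-like cells (-0.37, edgeR adjusted p = 3.04e-04).

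In the regulatory particle, 4 of 6 base ATPases were lower and 2 higher in EL4-like cells, and of 8 lid subunits 3 were lower, 2 higher and 3 did not pass. The lid counts lay near or below the shares of all genes called in this comparison, given above, and each class holds few genes. Psmc2, a base ATPase, had the largest deficit of the regulatory particle, at 141, 98.8, 146 and 102 CPM in EL4-like cells and 434, 216, 405 and 206 in IVA12-like cells, with a log2 difference of -1.26 ± 0.08 (SE), adjusted p = 1.83e-07 by edgeR. Psmd14, the deubiquitinase of the lid, stood at 164, 101, 157 and 102 and 381, 204, 377 and 210.0 with a log2 difference of -1.08 ± 0.05 (SE), adjusted p = 1.56e-08 by edgeR, and Psmc6, another ATPase, differed by -0.94. Psmg3, a chaperone of core assembly, differed by -0.86, and 3 of the 4 chaperones of its class were lower. The 5 members outside the immunoproteasome with the largest gain were Psmd10, Psmc1, Psmd8, Psmd5 and Psma3. Psmd10, a chaperone of base assembly also known as gankyrin, was at 51.4, 32.1, 49.8 and 33.8 CPM in EL4-like cells and 27.6, 17.1, 31.3 and 16.4 in IVA12-like cells, where no EL4-like library lay below an IVA12-like one, with a log2 difference of 0.93 ± 0.08 (SE), adjusted p = 1.96e-06 by edgeR. Psmc1, a base ATPase, was at 253, 194, 214 and 197 and 164, 115, 139 and 118, 0.74 ± 0.05 (SE), adjusted p = 1.06e-07 by edgeR. Psmd8, a lid subunit, Psmd5, a base chaperone, and Psma3, of the alpha ring, differed by 0.72, 0.58 and 0.51. Mouse Psmc3ip, at 47.9, 40.2, 46.7 and 39.1 and 72.3, 46.7, 69.7 and 43.2, differed by -0.33 (edgeR adjusted p = 0.00207). Members with no call were Psma1, Psma7, Psmb2, Psmd1, Psmd2, Psmd6, Psmd7, Psmd9, Psmd12, Psmg4 and Psme4.

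The line difference was not the same in mixtures F and G, a comparison added after the data had been seen. Within F alone 10 members were higher and 33 lower in EL4-like cells, beside 41.2% and 41.2% of all genes, and within G alone 15 were higher and 25 lower, beside 39.8% and 38.8%. The difference of the line effect between F and G passed edgeR's test for 34 members, 32 of them with a lower EL4-like over IVA12-like ratio in F, against 12.6% of all genes in that direction, 9.67% in the other and 22.3% in either. For Psmb9 the ratio was lower in F by -0.98 ± 0.07 (SE), adjusted p = 8.97e-15 on the log2 scale, for Psmb8 by -0.78 ± 0.07 (SE), adjusted p = 2.65e-12 and for Psma7 by -0.71 ± 0.06 (SE), adjusted p = 1.32e-12, each by edgeR. For Psme2b it was higher in F, 0.95 ± 0.25 (SE), adjusted p = 0.00296 by edgeR. Psmb8 in IVA12-like cells shows it in the levels, at 148 and 147 in F and 57.5 and 55.9 in G, whereas EL4-like cells held 397 and 395 against 288 and 258. The 34 calls fell to 15 without replicate 1, to 20 without replicate 2 and to 22 with DESeq2.

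In 5′ v1 the same contrast called 5 members higher and 35 lower in EL4-like cells by edgeR, where 75.9% of all genes were called, 35.9% higher and 40.0% lower, and the median over members was -0.85 against -0.06 over all genes. Without the TMM scaling the medians were -1.01 and -0.22. Psmb8 stood at 263 and 214 CPM in EL4-like and 125 and 107 in IVA12-like cells (1.19 ± 0.19 (SE), adjusted p = 2.08e-04), and Psmb9 at 188 and 157 and 97.5 and 91.6 (1.02 ± 0.23 (SE), adjusted p = 0.00223), in edgeR's test. The Psmb9 call was lost without replicate 1 of 5′ v1, at a log2 difference of 0.94 and an edgeR adjusted p of 0.0554. The other 3 members higher in EL4-like cells were Psmd5, Psma3 and Psmg4, by 0.86, 0.63 and 0.22.

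Psme1 had the largest deficit in 5′ v1, at 76.5 and 61.0 in EL4-like and 444 and 391 in IVA12-like cells, a log2 difference of -2.45 ± 0.10 (SE), adjusted p = 8.60e-09 by edgeR. Psmb5 followed, at 92.7 and 65.9 and 439 and 339.6, -2.15 ± 0.09 (SE), adjusted p = 1.18e-08 by edgeR. Psmd14, Psmc2 and the lid subunit Psmd3 differed by -2.14, -2.12 and -1.96, and Psmb3 and Psmb10 by -1.86 and -1.86. The remaining protease subunits and the activator genes Psme2 and Psme3 were lower too, with log2 differences of -1.40 for Psmb7, -0.92 for Psmb6, -1.50 for Psme2 and -0.49 for Psme3, while Psme4 did not pass (0.05). The line effect was larger, that is less negative or more positive, in 3′ v3 than in 5′ v1 for 35 members and smaller for 0 in edgeR's test of the difference, where 30.6% of all genes differed, 17.9% larger and 12.7% smaller. At an unadjusted p under 0.05, 38 of the 48 members differed, and DESeq2 called 33 larger and 0 smaller. Matching shares of all genes are not given for these counts. Psmd3 differed by 1.21 ± 0.09 (SE), adjusted p = 3.13e-05, Psmb10 by 1.13 ± 0.11 (SE), adjusted p = 9.09e-05, Psmd10 by 1.09 ± 0.16 (SE), adjusted p = 6.52e-04 and Psmb7 by 1.08 ± 0.12 (SE), adjusted p = 1.50e-04, each by edgeR. All 6 base ATPases, all 3 constitutive protease subunits and all 3 immunoproteasome subunits were among the 35. Without replicate 2 of 5′ v1 the count was 21.

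**Figure D3:**
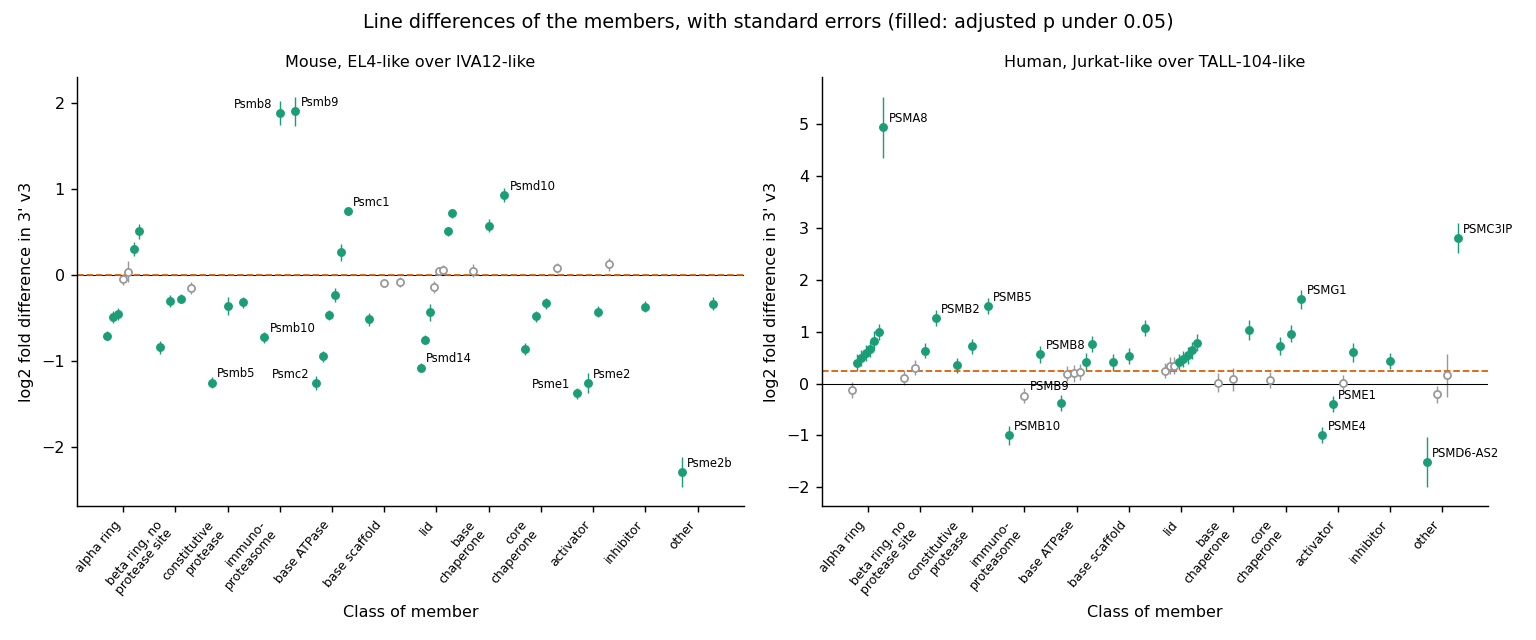
Log2 difference between the lines in 3′ v3 for every member tested (y axis), grouped by role along the x axis, EL4-like over IVA12-like in mouse and Jurkat-like over TALL-104-like in human; filled points passed edgeR's test at an adjusted p under 0.05, open points did not, bars are 1 SE, and the dashed orange line is the median of all genes tested (0.00 in mouse and 0.23 in human). Psmb8 and Psmb9 stand at the top of the mouse panel with values of 1.88 and 1.91, and most human members lie above 0.

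Between the human lines of 3′ v3, all 3 constitutive proteases, all 3 base scaffolds, 7 of 8 alpha ring members, 3 of 4 core assembly chaperones and 1 of 3 base assembly chaperones (PSMD10) were higher in Jurkat-like cells, while PSMB10 and the activators PSME1 and PSME4 were higher in TALL-104-like cells. Of the 51 members tested, 30 were higher and 5 lower in Jurkat-like cells by edgeR's quasi-likelihood test, and among all 14267 human genes 58.2% were called, 33.1% higher in Jurkat-like and 25.1% higher in TALL-104-like cells. The median log2 difference was 0.42 over members and 0.23 over all genes. Without TMM the medians were 0.53 and 0.34, with 34 members higher and 3 lower. Mixtures F and G did not give the same counts, with 40 higher and 5 lower in F alone, beside 32.7% and 25.9% of all genes, and 15 higher and 8 lower in G alone, beside 24.5% and 21.6%. The medians over members were 0.73 in F and 0.03 in G, and over all genes 0.24 and 0.19. Without replicate 1, the count was 18 higher and 5 lower. The shares of all genes without TMM and without replicate 1 are not given here.

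PSMB5 (ENSG00000100804), which carries the chymotrypsin-like site, stood at 291, 145, 297 and 121 CPM in Jurkat-like cells and 79.3, 54.5, 87.2 and 51.4 in TALL-104-like cells, with no overlap. Its log2 difference, Jurkat-like over TALL-104-like, was 1.50 ± 0.16 (SE), adjusted p = 1.84e-15 by edgeR. PSMB6 (ENSG00000142507) stood at 395, 182, 371 and 171 CPM in Jurkat-like cells and 162, 145, 169.7 and 130.0 in TALL-104-like cells, also with no overlap, and differed by 0.72 ± 0.15 (SE), adjusted p = 1.98e-05 in edgeR's test. PSMB7 (ENSG00000136930) stood at 392, 171, 376 and 184 CPM in Jurkat-like cells and 247, 184, 190.3 and 168 in TALL-104-like cells. Its groups overlapped, also within mixture G alone (171 and 184 against 184 and 168). The log2 difference over both mixtures was 0.35 ± 0.15 (SE), adjusted p = 0.0357 by edgeR.

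Of the immunoproteasome, PSMB8 (ENSG00000204264) stood at 293, 172, 296 and 149.6 CPM in Jurkat-like cells and 113, 145, 141 and 164 in TALL-104-like cells. It was higher in Jurkat-like cells by a log2 difference of 0.56 ± 0.16 (SE), adjusted p = 0.00113 in edgeR's test, but the difference was -0.05 in mixture G alone and, without replicate 1, 0.32 with an adjusted p of 0.124. PSMB9 (ENSG00000240065) stood at 178, 99.9, 167 and 104 CPM in Jurkat-like cells and 149.9, 153, 131 and 163 in TALL-104-like cells. Its groups overlapped and it did not pass (-0.23 ± 0.15 (SE), adjusted p = 0.182, edgeR), with 0.14 in mixture F and -0.68 in G. PSMB10 (ENSG00000205220) stood at 37.2, 10.1, 41.2 and 13.2 CPM in Jurkat-like cells and 49.7, 36.3, 64.0 and 37.8 in TALL-104-like cells. PSMB10 was higher in TALL-104-like cells within each mixture, although Jurkat-like cells of F overlapped TALL-104-like cells of G. Over both mixtures the log2 difference was -0.998 ± 0.18 (SE), adjusted p = 4.78e-07 in edgeR's test. The difference was smaller in F than in G, by 0.93 ± 0.31 (SE), adjusted p = 0.0281 in edgeR's test of the difference.

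The activator PSME1 stood at 436, 295, 472 and 290.4 CPM in Jurkat-like cells and 432, 408, 564 and 405 in TALL-104-like cells. It differed by -0.40 ± 0.15 (SE), adjusted p = 0.0147 in edgeR's test, a call lost without the 3′ v2 library or without replicate 2, 3 or 4 of 3′ v3. PSME2 stood at 409, 179, 404 and 152 CPM in Jurkat-like cells and 279.8, 206, 290.4 and 209 in TALL-104-like cells, overlapping, and its log2 difference was 0.02 ± 0.15 (SE), adjusted p = 0.937 by edgeR. PSME3 stood at 65.2, 44.0, 64.0 and 41.3 CPM in Jurkat-like cells and 22.7, 48.5, 29.2 and 41.7 in TALL-104-like cells, and its difference of 0.61 ± 0.18 (SE), adjusted p = 0.00265 by edgeR was -0.10 in mixture G and 0.33 (adjusted p = 0.177) without replicate 1. PSME4 stood at 28.0, 40.2, 28.8 and 48.4 CPM in Jurkat-like cells and 45.3, 107, 40.4 and 106 in TALL-104-like cells and differed by -0.996 ± 0.16 (SE), adjusted p = 2.63e-08 in edgeR's test.

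PSMC3IP and PSMA8 had the largest differences, but their TALL-104-like counts were small. PSMC3IP, not a proteasome subunit, was at 29.9, 25.8, 31.0 and 31.5 CPM in Jurkat-like cells and 2.62, 6.06, 4.72 and 2.91 in TALL-104-like cells, a log2 difference of 2.80 ± 0.29 (SE), adjusted p = 3.41e-16 by edgeR. PSMA8, the alpha subunit known from testis, was at 15.1, 16.3, 14.7 and 8.67 in Jurkat-like cells with 1468 UMIs, while TALL-104-like cells of 3′ v3 held 2 UMIs, both in replicate 3. That is a ratio of 36.4 with a counting interval of 10.1 to 301, and the fitted call (edgeR adjusted p = 5.23e-13) rests on those counts. PSMG1, a chaperone of alpha ring assembly, was at 154, 51.5, 152 and 52.2 CPM in Jurkat-like cells and 29.6, 24.2, 34.8 and 31.0 in TALL-104-like cells, with no overlap and 1.63 ± 0.19 (SE), adjusted p = 7.26e-14 by edgeR. PSMB2, a beta subunit with no protease site, differed by 1.27 ± 0.15 (SE), adjusted p = 7.99e-13 and PSMD2, a base scaffold that receives ubiquitin-like domains, by 1.07 ± 0.16 (SE), adjusted p = 1.21e-09, both by edgeR. Of the 8 alpha ring members tested 7 were higher and 0 lower, of 3 base scaffolds 3 higher, of 8 lid subunits 5 higher and of 4 core assembly chaperones 3 higher, with none of these lower. Each class holds few genes, and the shares of all genes called in this comparison are those given above. Besides PSMB10, PSME1 and PSME4, the members lower in Jurkat-like cells were PSMC6, a base ATPase (-0.38 ± 0.15 (SE), adjusted p = 0.0289, edgeR), and the antisense RNA PSMD6-AS2 (-1.51 ± 0.48 (SE), adjusted p = 0.00434, edgeR).

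Here too the line effect differed between mixtures. In edgeR's test of the difference, added after the data had been seen, 29 members had a higher Jurkat-like over TALL-104-like ratio in F and 1 a lower one, against 6.15% and 4.28% of all genes and 10.4% in either direction. The lid subunits PSMD11 and PSMD7 differed by 1.37 ± 0.19 (SE), adjusted p = 1.91e-11 and 1.23 ± 0.16 (SE), adjusted p = 1.77e-12, the scaffold PSMD1 by 1.20 ± 0.18 (SE), adjusted p = 2.77e-09 and PSMG1 by 1.24 ± 0.31 (SE), adjusted p = 0.00154, all by edgeR. PSMB8 differed by 1.06. Without replicate 4 the 30 calls fell to 13, and with DESeq2 to 17.

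In 5′ v1, 17 members were higher and 1 lower in Jurkat-like cells by edgeR, where 25.1% of all genes were called, 15.4% higher and 9.71% lower. The scaling mattered here. The median over members was 0.55 against 0.75 over all genes with TMM, 0.37 against 0.59 with library totals only and 0.32 against -0.02 with DESeq2, so that members lay below the median of all genes under the edgeR scalings and above it with DESeq2. The members called were 11 higher and 3 lower with library totals and 8 higher and 3 lower with DESeq2. With either 5′ v1 library left out, edgeR called fewer members. The shares of all genes in these alternative fits are not given here, so these counts cannot be set against them. PSMB5 stood at 216 and 179 CPM in Jurkat-like and 91.4 and 73.3 in TALL-104-like cells, with 1.43 ± 0.31 (SE), adjusted p = 9.03e-05 by edgeR. PSMD2, PSMG1, PSMA6 of the alpha ring and PSMG3 were higher by 1.98, 1.96, 1.80 and 1.63, and PSME3 by 1.56. PSMC3IP and PSMA8 had 0 UMIs in TALL-104-like cells against 1474 and 737 in Jurkat-like cells, at least 4.02-fold and at least 2.01-fold higher when 3 counts over both libraries are taken as the floor. PSMD6-AS2 was at 0 too and under the floor, so it has no fold, although all 3 stand in the median with fitted values.

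PSMB10 was the member lower in Jurkat-like cells of 5′ v1, at 82.4 and 68.7 against 245 and 147, -1.23 ± 0.27 (SE), adjusted p = 1.15e-04 by edgeR. Besides PSMB5, PSMB10 and PSME3, the protease subunits and activators did not pass in 5′ v1. Their log2 differences were 0.52 for PSMB8 (edgeR adjusted p = 0.188), 0.10 for PSMB9, 0.55 for PSMB6, -0.46 for PSMB7, -0.33 for PSME1, 0.14 for PSME2 and -0.30 for PSME4. The line effect differed between the kits for 1 member by edgeR, PSMA7, whose ratio was lower in 3′ v3 (-1.17 ± 0.30 (SE), adjusted p = 0.0121), where 2.32% of all genes differed, 0.995% with a larger and 1.32% with a smaller effect in 3′ v3. PSMA7 stood at 963, 339.9, 965 and 348 in Jurkat-like and 615, 521, 734 and 525 in TALL-104-like cells of 3′ v3 and at 793 and 782 and 481 and 376 in 5′ v1. The call was lost with library totals or DESeq2 and without replicate 2 or 4 of 3′ v3, either 5′ v1 library or the 3′ v2 library. Each of these scalings called 1 member, with a larger effect in 3′ v3. At an unadjusted p under 0.05, 10 of the 51 members differed, but the share of all genes at that threshold is not given here.

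Within the 3′ v3 kit, more proteasome members were called higher than lower in mixture F against mixture G in every line, least so in TALL-104-like cells. In this comparison of 2 libraries with 2, added after the data had been seen, edgeR called 43 of 48 members higher in F and 2 lower in EL4-like cells, where 59.3% of all genes were called, 30.8% higher and 28.5% lower. In IVA12-like cells 45 of 48 were higher and 1 lower (67.1% of all genes, 34.2% higher and 32.9% lower). In Jurkat-like cells it was 47 of 51 and 3 (56.4%, 29.7% and 26.7% of all genes) and in TALL-104-like cells 26 of 47 and 2 (37.1%, 18.6% and 18.5%). The median log2 differences over members were 0.76, 1.02, 1.43 and 0.54, and over all genes 0.02, 0.01, -0.02 and -0.03. Library totals in place of TMM moved the median of all genes to -0.33, -0.24, -0.40 and -0.38 and that of the members to 0.41, 0.77, 1.05 and 0.19, with 35, 43, 40 and 15 members higher and 3, 2, 3 and 4 lower. The shares of all genes above are those with TMM, and those with library totals are not given here. Whether the preparations differed in the cells' state or in their handling cannot be told apart.

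The count of structural subunits called higher in F was lowest in TALL-104-like cells. Of the core and regulatory particle subunits outside the immunoproteasome, 30 of 31 were higher in F in EL4-like cells, 30 of 31 in IVA12-like cells, 32 of 32 in Jurkat-like cells and 22 of 31 in TALL-104-like cells, beside the 30.8%, 34.2%, 29.7% and 18.6% of all genes. Psmb3 was at 512 and 500.2 CPM in F and 257 and 247 in G in EL4-like cells (1.35 ± 0.07 (SE), adjusted p = 9.05e-05, edgeR). In IVA12-like cells it was at 1155 and 1054 and 413 and 389 (1.71 ± 0.07 (SE), adjusted p = 2.62e-06, edgeR). Further large differences were those of Psma1 and Psmb2 in EL4-like cells, 1.35 and 1.32, and of Psmb2 in IVA12-like cells, 1.60. In TALL-104-like cells the human PSMB3 was at 337 and 259.9 and 147 and 151 (1.34 ± 0.16 (SE), adjusted p = 1.72e-07, edgeR), followed by the ubiquitin receptor PSMD4, the ATPase PSMC3 and PSMB5 with 1.07, 1.06 and 1.03. In Jurkat-like cells PSMA3, of the alpha ring, led with 534 and 524 in F and 154 and 146 in G (2.20 ± 0.10 (SE), adjusted p = 1.23e-11, edgeR), and the ATPase PSMC4 and PSMG1 differed by 1.94 each.

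The immunoproteasome subunits did not do the same in all lines. In IVA12-like cells Psmb8 and Psmb9 were higher in F by 1.63 ± 0.06 (SE), adjusted p = 2.62e-06 and 1.59 ± 0.07 (SE), adjusted p = 2.62e-06 in edgeR's test. In Jurkat-like cells PSMB10 was higher by 2.06 ± 0.16 (SE), adjusted p = 1.52e-09, edgeR, at 37.2 and 41.2 in F and 10.1 and 13.2 in G. In TALL-104-like cells PSMB8 and PSMB9 did not pass, with log2 differences of 0.07 and 0.17 (edgeR adjusted p = 0.744 and adjusted p = 0.433). Their CPM, which are without the TMM scaling, were lower in F without overlap. PSMB8 was at 113 and 141 in F and 145 and 164 in G, and PSMB9 at 149.9 and 131 and 153 and 163. PSMB10 was higher in F by 0.99 ± 0.23 (SE), adjusted p = 9.97e-04, edgeR, at 49.7 and 64.0 against 36.3 and 37.8. Summed, the immunoproteasome subunits were 1.34, 2.00, 1.84 and 0.928 times as high in F as in G in EL4-like, IVA12-like, Jurkat-like and TALL-104-like cells. These ratios are of CPM without the TMM scaling, and in TALL-104-like cells the fitted differences of the 3 subunits were all above 0.

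A few members went against the rest. The activator gene Psme4, or PSME4 in human, was lower in F in all 4 lines, by -0.48 ± 0.08 (SE), adjusted p = 0.00179 in EL4-like, -0.81 ± 0.06 (SE), adjusted p = 1.21e-05 in IVA12-like, -0.30 ± 0.12 (SE), adjusted p = 0.0472 in Jurkat-like and -0.98 ± 0.19 (SE), adjusted p = 1.60e-04 in TALL-104-like cells, all by edgeR. PSME4 levels in TALL-104-like cells were 45.3 and 40.4 in F and 107 and 106 in G. Psme3 was lower in F in EL4-like cells (-0.41 ± 0.10 (SE), adjusted p = 0.00913, edgeR), whereas Psme2b was higher (1.63 ± 0.37 (SE), adjusted p = 0.0079, edgeR). The other members lower in F were the antisense RNAs PSMD6-AS2 and PSMD5-AS1 in Jurkat-like cells, by -1.07 and -0.76, and PSMD1 in TALL-104-like cells, by -0.47.

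**Figure D4:**
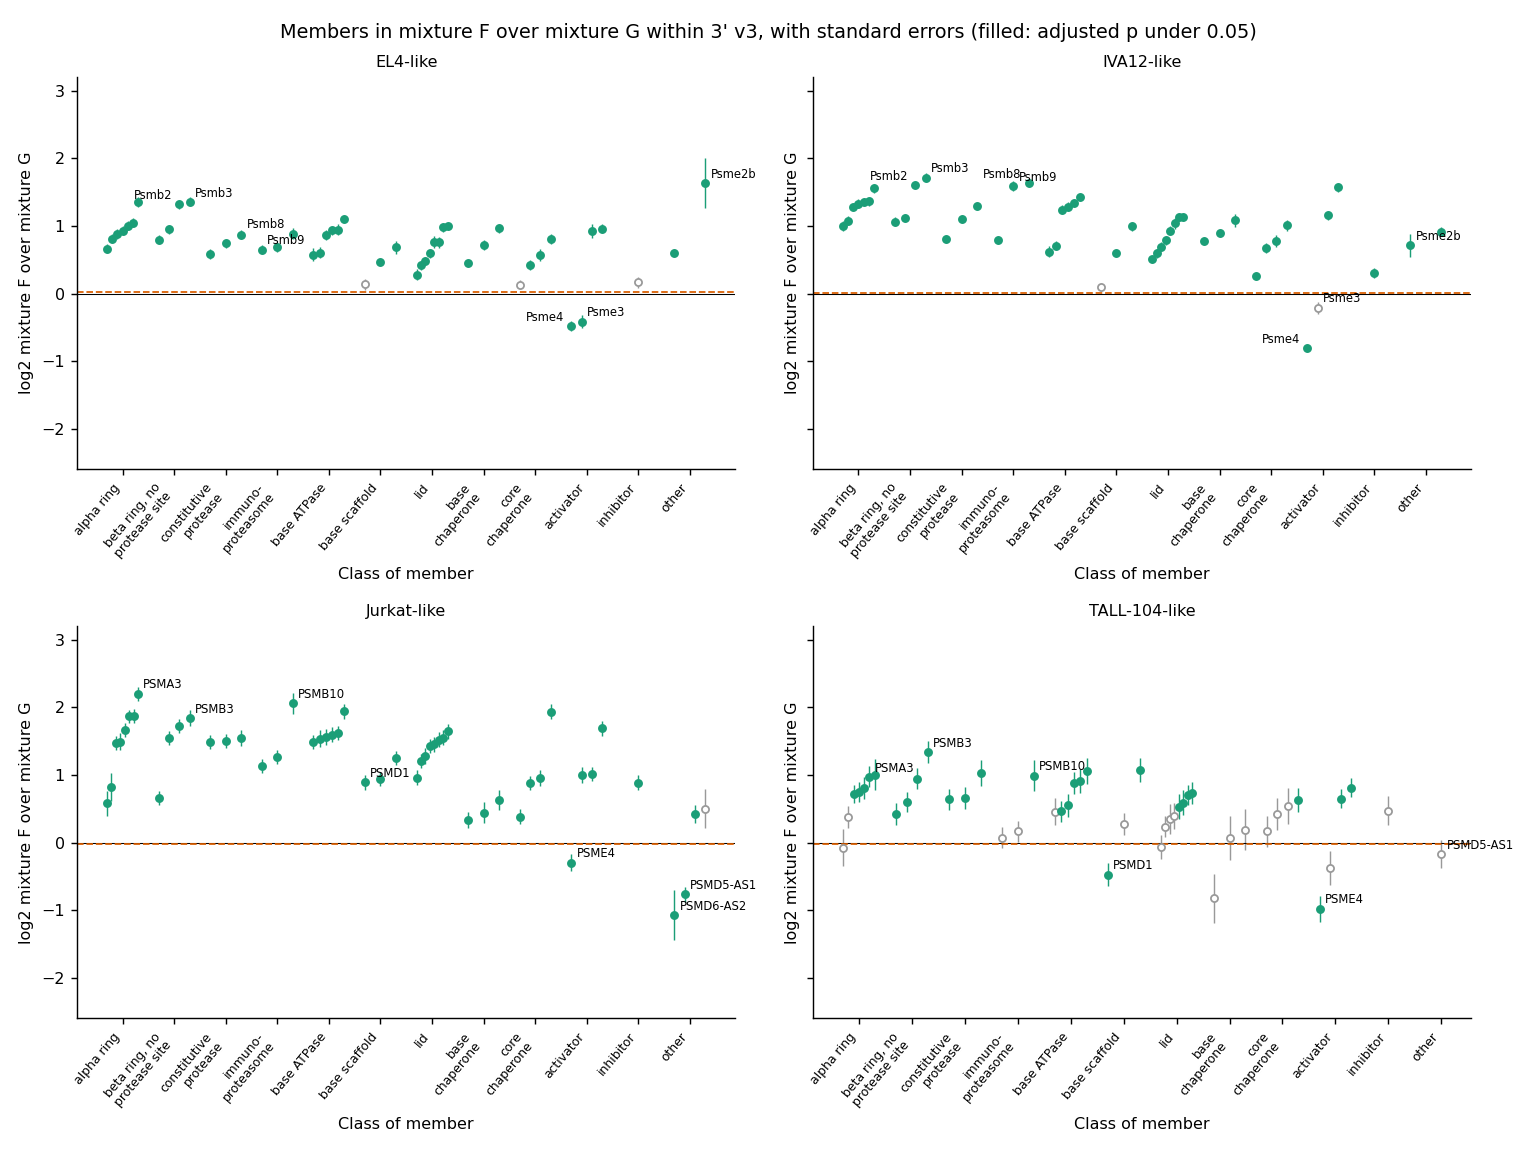
Log2 difference of mixture F over mixture G within 3′ v3 for every member tested (y axis), by line and role; filled points passed edgeR's test at an adjusted p under 0.05, bars are 1 SE, and the dashed orange line is the median of all genes tested in the line (0.02, 0.01, -0.02 and -0.03). Most members lie above the line, around medians of 0.76, 1.02, 1.43 and 0.54, and Psme4 or PSME4 lies below it in all 4 panels.

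Between kits, EL4-like cells had higher levels of proteasome members in 3′ v3 than in 5′ v1. edgeR called 28 of 48 members higher in 3′ v3 and 0 lower in EL4-like cells, where 36.3% of all genes were called, 19.2% higher and 17.1% lower, and the median was 1.16 over members and 0.06 over all genes. At an unadjusted p under 0.05, 34 members differed, and DESeq2 called 32 higher and 0 lower, both without matching shares of all genes here. Both mixtures showed it, with 44 higher and 1 lower when F alone was set against 5′ v1 (32.9% and 33.3% of all genes) and 35 and 3 when G alone was (35.7% and 35.4%), but the count fell to 13 without replicate 1 and to 5 without replicate 2 of 5′ v1. All 6 base ATPases and all 3 base scaffolds were among the 28. Psmd6, a lid subunit, went from 26.8 and 22.8 CPM in 5′ v1 to 135, 101, 148 and 112 in 3′ v3 (2.29 ± 0.32 (SE), adjusted p = 0.00243, edgeR). Psmc5, a base ATPase, went from 34.3 and 25.5 to 160.3, 109, 178 and 115 (2.21 ± 0.39 (SE), adjusted p = 0.00551, edgeR). Neither overlapped, and the same was true of the lid subunit Psmd12 (2.08 ± 0.32 (SE), adjusted p = 0.00344, edgeR) and of Psmc2 (1.99 ± 0.35 (SE), adjusted p = 0.00537, edgeR). Psmb10 rose by 1.89 and Psmb5 by 1.68, while Psmb8 and Psmb9 did not pass, at 0.46 and 0.50 (edgeR adjusted p = 0.311 and adjusted p = 0.176). The 3′ v2 library, with no test, held a summed member level of 6072 in EL4-like cells, between the means of 4264 in 5′ v1 and 8871 in 3′ v3.

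In IVA12-like cells 2 of 48 members were higher in 3′ v3 and 0 lower by edgeR, where 9.15% of all genes were called, 4.42% higher and 4.73% lower. At an unadjusted p under 0.05, 16 members differed, and DESeq2 called 14 higher and 0 lower. The matching shares of all genes are not given here, so these counts cannot be read as an excess among members. The scaffold Psmd1 went from 73.0 and 69.4 to 148, 162, 153 and 173 (1.18 ± 0.15 (SE), adjusted p = 0.00757, edgeR) and the scaffold Psmd2 from 78.7 and 73.7 to 179.8, 139, 172 and 137 (1.09 ± 0.25 (SE), adjusted p = 0.0427, edgeR), without overlap. The median over members was 0.65 against 0.03 over all genes. With F alone it was 1.05 against -0.03 over all genes, with 44 members higher and 2 lower beside 29.7% and 30.2% of all genes. With G alone it was 0.06 against 0.01 over all genes, with 20 and 17 members beside 34.1% and 32.3% of all genes.

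In the human lines few members passed. Jurkat-like cells had 1 member higher and 3 lower in 3′ v3 by edgeR, where 16.2% of all genes were called, 8.24% higher and 8.0% lower. TALL-104-like cells had 1 higher and 3 lower of 47, where 4.41% of all genes were called, 2.41% higher and 2.0% lower. The member higher in both was PSMA2, an alpha subunit, from 6.45 and 7.63 to 109.5, 58.4, 111 and 46.8 in Jurkat-like cells (3.58 ± 0.59 (SE), adjusted p = 0.00957, edgeR) and from 4.81 and 9.16 to 80.2, 42.4, 59.7 and 43.7 in TALL-104-like cells (3.26 ± 0.81 (SE), adjusted p = 0.0322, edgeR), where 5′ v1 held 2 UMIs of it and 3′ v3 297, a ratio of 9.42 with a counting interval of 2.58 to 78.1. PSMD9, a base assembly chaperone, was lower in both, from 106 and 107 to 31.0, 29.5, 40.0 and 30.3 (-1.71 ± 0.25 (SE), adjusted p = 0.00703, edgeR) and from 101 and 119 to 17.4, 46.4, 38.2 and 27.2 (-1.70 ± 0.40 (SE), adjusted p = 0.0262, edgeR). PSMA6 fell from 191 and 172 to 41.1, 49.0, 72.7 and 50.2 in Jurkat-like cells (-1.80 ± 0.30 (SE), adjusted p = 0.00964, edgeR), where the antisense RNA PSMG3-AS1 differed by -0.89. In TALL-104-like cells PSMB10 fell from 245 and 147 to 49.7, 36.3, 64.0 and 37.8 (-1.96 ± 0.37 (SE), adjusted p = 0.00663, edgeR), and the inhibitor PSMF1 from 139 and 147 to 61.9, 46.4, 52.0 and 54.3 (-1.31 ± 0.34 (SE), adjusted p = 0.0379, edgeR). None of these groups overlapped. In IVA12-like, Jurkat-like and TALL-104-like cells every one of these calls was lost without replicate 1 and without replicate 2 of 5′ v1, where 1 library of 5′ v1 was set against 4 of 3′ v3 and was assumed to vary like them. The directions did not change there, and PSMA2 in Jurkat-like cells differed by 3.48 and 3.65, Psmd1 in IVA12-like cells by 1.24 and 1.14 and PSMB10 in TALL-104-like cells by -1.44 and -2.26. In Jurkat-like cells F alone gave 36 members higher and 5 lower, beside 29.8% and 29.6% of all genes, and G alone 6 and 32, beside 32.5% and 33.3%.

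**Figure D5:**
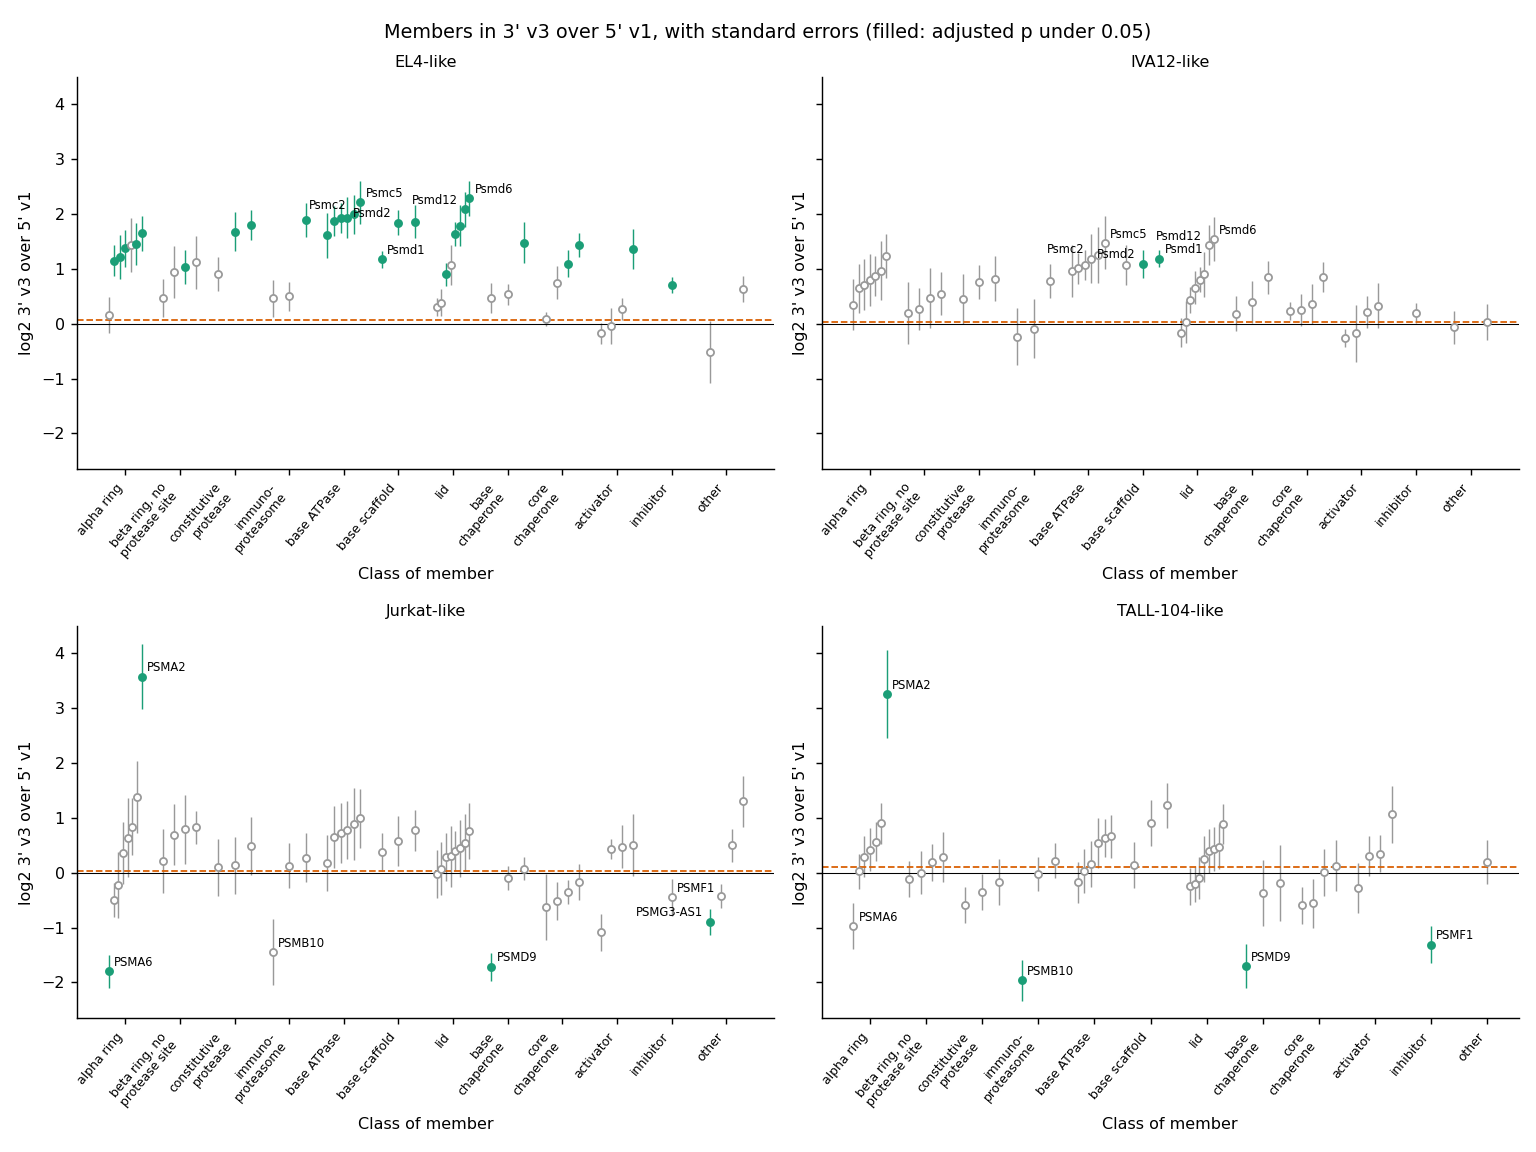
Log2 difference of 3′ v3 over 5′ v1 for every member tested (y axis), by line and role; filled points passed edgeR's test at an adjusted p under 0.05, bars are 1 SE, and the dashed orange line is the median of all genes tested in the line (0.06, 0.03, 0.03 and 0.10). EL4-like cells show the upward shift of the members (median 1.16), and PSMA2 stands at 3.58 and 3.26 in the human panels.

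The share of single cells with a protease transcript varied widely at equal depth. With each cell thinned to 1000 UMIs, 1.14% to 55.9% of cells of the line's own species had a UMI of a given protease subunit (median 14.1%), against 0% to 8.69% of cells of the other species (median 0%), which lack the gene. Free RNA and cells of 2 species in 1 droplet cannot be told apart here. Psmb8 was found in 20.1% to 33.3% of EL4-like and 4.83% to 13.3% of IVA12-like cells, and Psmb5 in 6.07% to 25.8% and 22.5% to 55.9%. PSMB8 was found in 10.96% to 25.3% of Jurkat-like and 10.6% to 17.0% of TALL-104-like cells. The ranges are over the 7 libraries. Unthinned, Psmb8 was found in 95.7% to 99.7% of EL4-like cells and PSMB8 in 19.3% to 40.4% of TALL-104-like cells. After thinning, the share in cells of the other species was highest in TALL-104-like cells of 3′ v3 replicate 3, of which 8.69% held a UMI of mouse Psmb5. Before thinning, mouse Psmb5 was found in up to 18.5% of TALL-104-like and up to 30.7% of the deeper Jurkat-like cells.

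Genes that work with the proteasome but lie outside the naming rule were called in both directions. Of 22 mouse partners, among them assembly factors, deubiquitinases, shuttle factors and the regulators Nfe2l1 and Nfe2l2, 8 were higher and 10 lower in EL4-like cells of 3′ v3 by edgeR (median -0.11), beside the 40.6% and 39.9% of all genes. The largest gains were those of Nfe2l2, a stress-response factor (0.98), the proteasomal deubiquitinase Usp14 (0.77) and the maturation factor Pomp (0.57). The largest deficits were those of Nfe2l1, the factor that raises proteasome gene transcription (-1.11), Zfand5 (-0.89) and Nploc4 (-0.89). Of 11 mouse genes of antigen processing, which use the peptides that the immunoproteasome makes, 5 were higher and 5 lower (median -0.05). The peptide transporter subunit Tap2 (3.07), the MHC class I regulator Nlrc5 (2.43) and B2m, the light chain of MHC class I (1.80), were higher, and Tapbpl (-2.87), Irf1 (-1.11) and the peptide-trimming Erap1 (-1.07) lower.

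In human cells of 3′ v3, 9 of 23 partners were higher and 3 lower in Jurkat-like cells by edgeR (median 0.18), beside 33.1% and 25.1% of all genes (median 0.23), with USP14 (1.15) and SHFM1 (0.92) among those on the one side and NFE2L2 (-1.36), KIAA0368 (-0.96) and AKIRIN2 (-0.73) on the other. Of 12 antigen processing genes 10 were lower and the others did not pass (median -0.99), beside the 25.1% of all genes that were lower. B2M differed by -2.85, TAPBP, which loads peptide on MHC class I, by -2.55 and TAPBPL by -1.70. Of the members that belong to this pathway, PSMB10 and PSME1 were lower in Jurkat-like cells as well, PSMB8 was higher and PSMB9 and PSME2 did not pass. In 5′ v1 the counts were 5 partners higher and 9 lower and 4 antigen processing genes higher and 7 lower in mouse, beside 35.9% and 40.0% of all genes, and 8 and 2 and 1 and 6 in human, beside 15.4% and 9.71%. Mixture F over G gave 10 partners higher and 9 lower in EL4-like, 11 and 7 in IVA12-like, 15 and 4 in Jurkat-like and 5 and 5 in TALL-104-like cells, and 4 and 1, 10 and 1, 6 and 2, and 3 and 6 antigen processing genes, in the same order. Of all genes, 30.8% and 28.5%, 34.2% and 32.9%, 29.7% and 26.7%, and 18.6% and 18.5% were higher and lower there. Both lists were chosen with earlier results of these data known.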

How the data were processed

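Single-cell 3′ and 5′ gene expression was measured in 7 Chromium libraries of pooled cell lines, grouped by the kit named in their titles. Of 3′ v2, replicate 1 was not used here. The deposited files hold raw UMI counts of genes in barcodes, with none of the barcodes removed. To make them, the authors thinned the reads with seqtk and ran Cell Ranger (version 3.0.2, per the submitters' processing notes) on a joint hg19 and mm10 reference. The counting of strand is not given in the sources used here. The thinning levels the reads of the cells richest in RNA, so the depth still differs between lines. Total UMIs per library, 24790710 to 251164949, set the precision, which is lowest for TALL-104-like cells.

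Cells had at least 1000 UMIs, over 80% from 1 species and under 10% mitochondrial UMIs. Within each library and species, barcodes with under 20% mitochondrial UMIs were clustered in scanpy 1.11.5, and the 10% limit was applied afterwards. Clustering used every second feature, without the members, the partner lists and mitochondrial genes (1000 variable genes, 15 principal components, 15 neighbours, Leiden resolution 0.5). Clusters were named by marker lists. Clusters with under 10 barcodes, with markers of both lines or with leading genes against the name stayed unnamed, and a limit of 60% of marker UMIs from the own line was added after seeing the data. The names were rebuilt here, so a difference from the study may come from them.

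UMIs were summed per library and line, since cells are not replicates. Genes with at least 10 counts in at least 2 sums were tested with edgeR 4.0.16 in R 4.3.3 (quasi-likelihood, TMM, Benjamini-Hochberg over all genes tested, threshold 0.05). Line effects were fitted per kit over all 7 libraries with the library as a block, since both lines of a library were in 1 tube, and kits were compared within a line, 4 libraries with 2. Replicate numbers pair nothing across kits. Cell mixtures were taken from the study's sample list, and the comparisons of mixtures F and G were added after seeing the data. Alternatives were DESeq2 1.42.0, library totals without TMM, no count filter, no block, other limits on cells, mixtures apart and leaving out each library. Shares of all genes called are given for the main fits and for some fits of 1 mixture, but not for the other alternatives. Counts of members in those alternatives cannot be set against all genes. The tests were also run on simulated counts, but the outcome is not given here and no result above rests on it.

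Named in line comparisons were the 6 protease subunits, Psme1, Psme2, Psme3 and up to 5 further members per direction with the largest called difference; in kit comparisons up to 4 per direction; in tests of a difference up to 4; and of the partner lists up to 3 per direction. A partner gene that this rule would name is not reported here. Psme4, Psmf1, Psma7 and others named with their values outside this rule were chosen after the values were seen. The members, lists and rules were chosen with earlier results of these data known. No sequence or position is given, since no genome was used here.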

Additional observations from a re-analysis of the deposited data

Results flagged for a closer look

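Differences of the line effect are listed for the members with the largest values by edgeR's quasi-likelihood test, on the log2 scale. Between 3′ v3 and 5′ v1, 35 mouse members differed, led by Psmd3 (1.21), Psmb10 (1.13), Psmd10 (1.09) and Psmb7 (1.08), and 1 human member, PSMA7 (-1.17). Between mixtures F and G, 34 mouse members differed, led by Psmb9 (-0.98), Psme2b (0.95), Psmb8 (-0.78) and Psma7 (-0.71), and 30 human members, led by PSMD11 (1.37), PSMG1 (1.24), PSMD7 (1.23) and PSMD1 (1.20). Kit and mixture cannot be told apart in the first set. The shares of all genes that differed are given above for each of these tests. The 1 human member that differed between kits is near that share, and its call was lost with library totals or DESeq2.

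In 185 groups of 4 libraries, 5 held a library far from the others by Dixon's test. Its chance rate of about 1 in 20 holds for values of 1 distribution. It does not apply here, since each group held 2 libraries of mixture F and 2 of mixture G. Class sums and shares of pairs are also counted beside the members they hold. PSME1 was at 564 CPM in TALL-104-like cells of 3′ v3 replicate 3, above 405 to 432 in the other replicates, and the summed activators were at 924 there against 761 to 780. PSMD9 was at 40.0 in Jurkat-like cells of replicate 3 against 29.5 to 31.0. The inhibitor Psmf1 was at 52.8 in IVA12-like cells of replicate 1 against 46.9 to 47.8. Psmb10 took 27.5% of its pair in EL4-like cells of replicate 2 against 29.6% to 30.0%.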

How the results depend on the processing

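Shares of all genes are not given beside the alternative counts in this section. By these counts alone, a change in the members cannot be told from a general change in calls. Counts of members called were 37, 40 and 35 for the mouse lines in 3′ v3, in 5′ v1 and for their difference, and 35, 18 and 1 for the human lines. Without the replicate block, that is with lines compared across libraries rather than within them, they were 18, 20 and 0, and 14, 7 and 0. Leaving out 1 library at a time gave 36 to 38, 36 to 41 and 21 to 37 in mouse and 23 to 39, 5 to 20 and 0 to 1 in human. In the kit comparisons the same gave 5 to 34 in EL4-like cells and 0 to 4 in each of IVA12-like, Jurkat-like and TALL-104-like cells, against 28, 2, 4 and 4. For mixture F against G it gave 43 to 46, 46 to 47, 43 to 50 and 19 to 31, against 45, 46, 50 and 28 in the same order of lines, and for the differences between mixtures 15 to 26 in mouse and 13 to 26 in human, against 34 and 30.

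With mixture G alone the human lines in 3′ v3 had 23 members called. DESeq2 called 11 between the human lines in 5′ v1, 22 and 17 for the mouse and human differences between mixtures, and 14 between kits in IVA12-like cells. For the last comparison library totals gave 7, no count filter 4, mixture F alone 46 and G alone 37. F alone gave 45 in EL4-like, 41 in Jurkat-like and 12 in TALL-104-like cells, and G alone 38 in Jurkat-like and 12 in TALL-104-like cells. In Jurkat-like cells the split was 1 higher and 3 lower with TMM, 2 and 4 with DESeq2 and 2 and 3 with library totals. With cells over 95% from 1 species, F against G in TALL-104-like cells gave 18, and the human line fit lost replicate 3 of 3′ v3, which had no TALL-104-like cells left. Without the limit on marker UMIs the difference of the human lines between kits gave 0. The cause of these changes was not tested.

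Of the shares in 5′ v1, Psmb10 in IVA12-like cells was 34.7% without clusters of low UMIs (35.1% as reported), PSMB8 in TALL-104-like cells was 66.4% with at least 2000 UMIs and 52.0% without the marker limit (64.3%), and PSMB9 there was 35.1% without that limit (39.4%). Some differences between the human lines changed sign, among them PSME3 and PSMB8 in 3′ v3, which had passed the test. In 3′ v3, PSME2 (0.02) was -0.41 in mixture G, -0.048 with at least 2000 UMIs, -0.023 with over 95% from 1 species and -0.14 to 0.19 without 1 library, PSME3 (0.61) was -0.10 and PSMB8 (0.56) -0.050 in G, and PSMB9 (-0.23) was 0.14 in F. In 5′ v1, PSME2 (0.14) was -0.078 with DESeq2, -0.040 with library totals, -0.012 with over 95% and -0.22 to 0.43 without 1 library, and PSMB9 (0.10) was -0.11, -0.077, -0.022 and, without 1 library, -0.091 to 0.24. Of the other values of named genes under alternatives, 1099 kept direction and side of the threshold, 66 kept direction and lost the call and 2 gained it, and when 1 library was left out 641 and 71 did so.

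Depth limits the human comparisons in 5′ v1, where TALL-104-like cells were few and shallow, and a member with 3 UMIs or fewer there has only a lower bound or a wide counting interval for its fold, or none where the other line was also under the floor.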
